A study of Homo sapiens with 4 samples.

Results

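The genes described here are 50 components of the WNT pathway, taken by name from the 57820 gene identifiers in the count files: 6 WNT ligands, 2 genes of ligand secretion, 14 receptors and co-receptors, 3 Dishevelled genes, 6 genes of beta-catenin and its destruction complex, 4 TCF factors, 10 feedback targets and 5 inhibitors. The rule that chose them uses no measured value, but it was written with earlier results of these data known. RNA was measured by sequencing of poly(A) RNA in the established medulloblastoma line Daoy, of human origin, in 3 libraries labelled wild type and 1 labelled ARID1B shRNA. ARID1B encodes a DNA-binding subunit of the BAF chromatin remodelling complexes. Per the labels, the hairpin was carried in polyclonal Daoy populations by a lentiviral vector that doxycycline switches on, and doxycycline was given at 1 µg/ml for 72 h. Vector-only cells (tet-pLKO-puro) and parental cells are the controls named in the series design; which of them gave each wild-type library is not stated, and the doxycycline treatment is given for all 4 libraries. There was 1 library with the shRNA label, called the shRNA-labelled library from here on. The spread in every test therefore came from the 3 wild-type libraries, which the labels do not say to be separate cultures, so the p-values rest on how far these libraries differed, which may be technical.

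WNT proteins are secreted lipid-modified ligands that bind Frizzled receptors together with the co-receptors LRP5 and LRP6. Without a ligand, a destruction complex of APC, Axin, GSK3 and casein kinase 1 marks beta-catenin for degradation; ligand binding, relayed by Dishevelled, halts this, and beta-catenin then works with TCF/LEF factors in the nucleus. Several of the genes it switches on, such as AXIN2, NKD1, RNF43 and ZNRF3, restrain the pathway in turn. Activating CTNNB1 mutations define the WNT subgroup of medulloblastoma, whereas Daoy is widely used as a model of the sonic hedgehog subgroup.

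Reads within genes numbered 12619786 to 15390106 in wild type and 8792848 in the shRNA-labelled library. Levels are given as CPM (reads of a gene relative to the scaled size of its library). The target gene ARID1B did not stand lower in the shRNA-labelled library: it measured 164, 88 and 72.9 CPM in wild-type libraries 1, 2 and 3 and 175 CPM there (log2 fold change 0.69, SE 0.46, edgeR adjusted p = 0.399; across 9 alternative analyses the adjusted p ran from 0.026, without wild-type library 1, to 0.889, and the change turned to -0.18 once a trend on GC content and transcript length was taken out). Every direction below is thus one of this library against wild type, whatever its ARID1B level. Of 17 markers of cerebellar granule cell progenitors and medulloblastoma 13 were abundant enough to test, among them ZIC1, PAX6 and VIM, while ATOH1 had 0 counts in every library. Of 8 blood and immune markers 3 were at 0 in every library, and their summed level was 0.466 to 1.39 CPM in wild type against 0.570 CPM. The 17 granule cell and medulloblastoma markers summed to 2554 to 2806 CPM in wild type against 1079 CPM. Most of it was VIM, which fell from 2439 to 2658 CPM to 937 CPM. The 16 others summed to 111 to 148 CPM against 142 CPM. Of the 13 tested markers 2 were higher past the threshold (15.4%, against 3.65% of all tested genes) and 1 was lower (7.69%, against 0.834%). Of the same 13, 3 lay above the wild-type range (23.1%, against 35.4% of all tested genes) and 6 below it (46.2%, against 37.9%). Their median log2 fold change was -0.60 (-0.96 with the trend on GC content and length removed). The 8 mesenchymal markers summed to 3966 to 5862 CPM against 3672 CPM. Their median log2 fold change was -1.99 (-2.16 with the trend described below removed). Of these 8, 5 lay below the wild-type range (62.5%, against 37.9% of all tested genes) and none above it. FAP alone passed the test, as lower (12.5%, against 0.834% of all tested genes). Epithelial markers summed to 238 to 337 CPM against 398 CPM, glial ones to 10.7 to 13.5 CPM against 18.5 CPM, and neuronal ones to 25.0 to 35.2 CPM against 30.8 CPM. The part of these markers in the results below was not tested, and in bulk RNA fewer cells of a kind and less RNA per cell cannot be told apart. Across the transcriptome, genes rich in G and C stood higher in the shRNA-labelled library. Beside each call below, "with the trend removed" therefore gives the log2 fold change once a smooth trend of counts on GC content and length was taken out of every library.

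Of the 50 WNT pathway genes 47 were abundant enough to test, and 8 of them (17.0%, against 4.48% of all tested genes) differed between the shRNA-labelled library and wild type at an edgeR adjusted p below 0.05. The 6 that rose were the ligand WNT7B, the receptors FZD7 and FZD8, the relay protein gene DVL1, the scaffold gene AXIN1 and the secreted inhibitor DKK1. The 2 that fell were the R-spondin receptor LGR4 and the receptor TNFRSF19. Rising genes made up 12.8% of the tested pathway genes against 3.65% of all 17024 tested genes, and falling genes 4.26% against 0.834%. The median log2 fold change of the 47 was 0.26, against -0.05 over all tested genes. With the trend removed 3 genes rose (FZD7, DVL1 and DKK1) and 1 fell (LGR4), against 1.93% and 1.19% of all genes (3.12% in either direction), and the pathway median was 0.04 against -0.08. In the order of the libraries, 24 of the 47 (51.1%) lay above all 3 wild-type libraries and 14 (29.8%) below, against 35.4% and 37.9% of all tested genes. Without wild-type library 2 only DKK1 rose and only TNFRSF19 fell; without library 3, DVL1, AXIN1 and DKK1 rose and LGR4 fell.

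**Figure D1:**
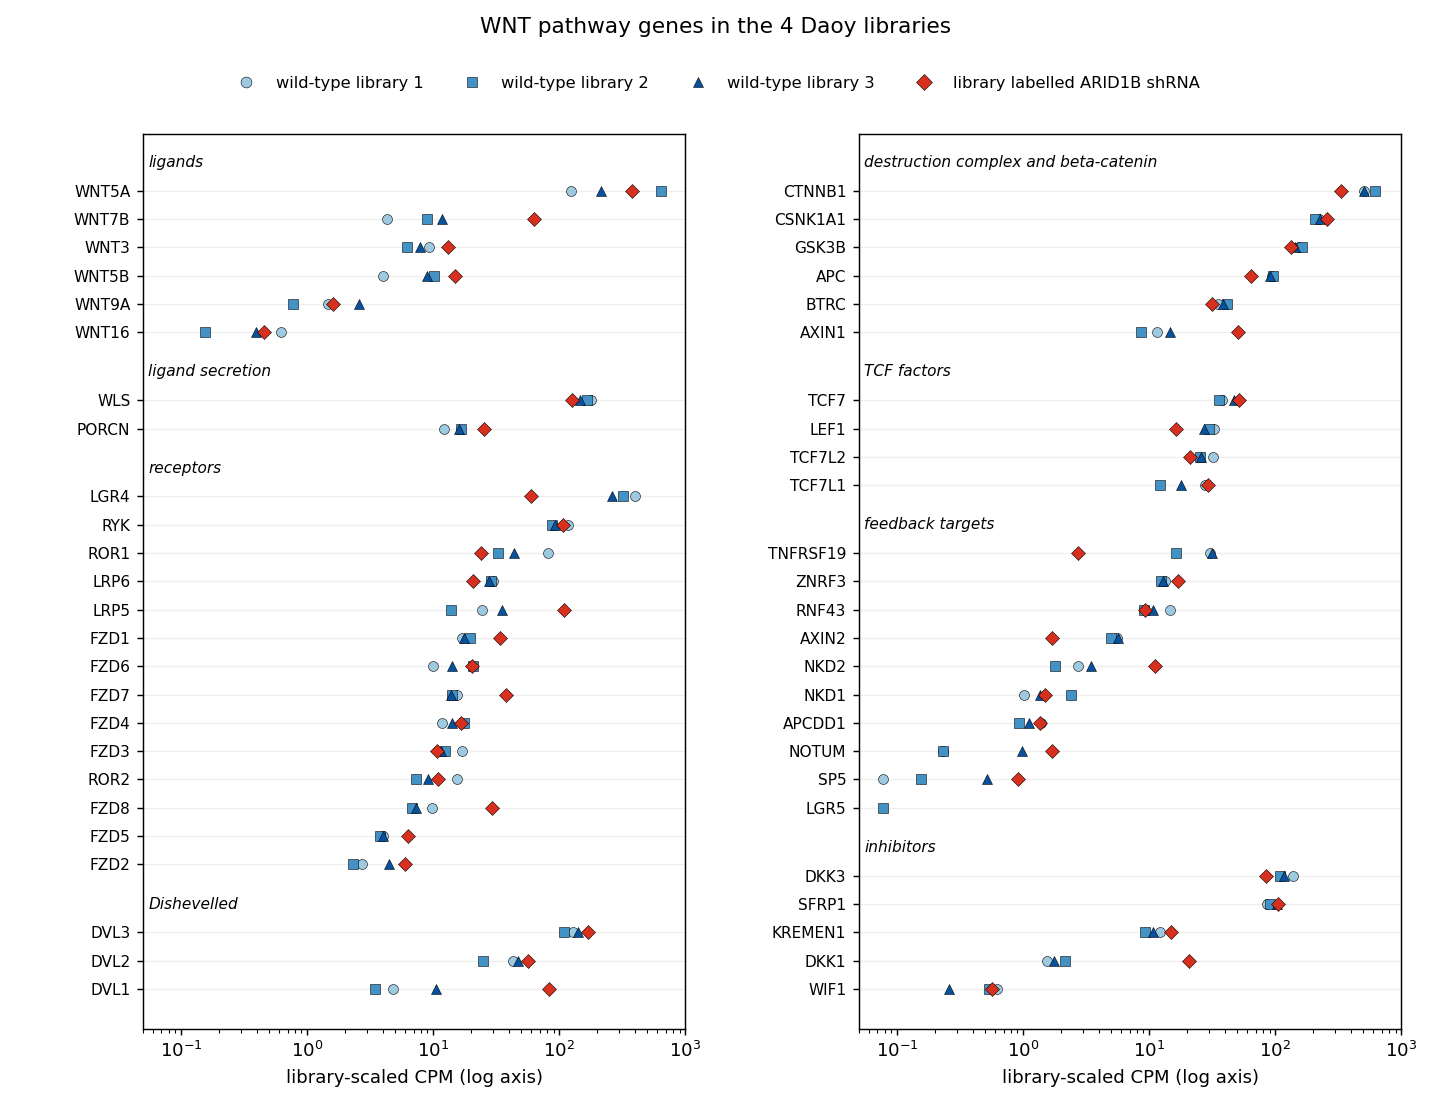
Library-scaled CPM (log axis) of each of the 50 WNT pathway genes in the 4 libraries, by role; blue symbols are wild-type libraries 1 to 3 and red diamonds the shRNA-labelled library. Values of 0 are not drawn (LGR5 in 3 libraries). DKK1, DVL1 and WNT7B stand far to the right of the wild-type symbols, and LGR4, TNFRSF19 and AXIN2 to the left.

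Among the ligands 1 of 5 tested genes rose. WNT7B, a ligand of the developing nervous system and vasculature, measured 4.27, 8.97 and 11.8 CPM in wild-type libraries 1, 2 and 3 and 62.6 CPM (95% Poisson interval 57.5 to 68.1, counting error only) in the shRNA-labelled library. The latter value lay above every wild-type library by far more than they differed among themselves (log2 fold change 2.90, SE 0.48, edgeR adjusted p = 0.0417). The WNT7B call was lost with the trend removed (1.62, edgeR adjusted p = 0.144) or without wild-type libraries 2 (0.108) or 3 (0.0688), and the adjusted p over 9 alternatives ran from 3.66e-23 to 0.144. WNT5A, the chief activator of beta-catenin-independent WNT signalling, had the highest ligand level per transcript length, 52.5 CPM per kilobase in wild type. It measured 124, 635 and 214 CPM in wild-type libraries 1, 2 and 3 and 378 CPM in the shRNA-labelled library, which thus fell inside the wild-type range (log2 fold change 0.22, SE 0.91, edgeR adjusted p = 0.904). Its relative WNT5B came next per length, at 3.33 CPM per kilobase in wild type, and measured 4.04, 10.1 and 8.85 CPM against 14.9 CPM. The shRNA-labelled library lay above all wild-type libraries for WNT5B, but the difference did not pass the test (log2 fold change 0.96, SE 0.51, edgeR adjusted p = 0.30). WNT3, another activator of beta-catenin signalling, stood between 6.18 and 9.24 CPM in wild type and at 13.1 CPM in the shRNA-labelled library (edgeR adjusted p = 0.213). WNT9A lay inside the wild-type range, and WNT16 had 8, 2 and 6 counts in wild type and 4 in the shRNA-labelled library, too few to test.

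The genes that ready WNT ligands for export did not pass the test. PORCN, the acyltransferase that attaches their lipid, measured 12.3, 16.7 and 16.1 CPM in wild type against 25.2 CPM in the shRNA-labelled library (log2 fold change 0.74, SE 0.27, edgeR adjusted p = 0.157). WLS, the carrier that takes lipidated ligands to the cell surface, measured 178, 165 and 147 CPM against 126 CPM (log2 fold change -0.37, SE 0.19, edgeR adjusted p = 0.268). PORCN lay above and WLS below all wild-type libraries.

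Of 14 receptors and co-receptors 2 rose and 1 fell. LGR4, which binds R-spondins and thereby keeps Frizzled receptors at the cell surface, was the highest of them per transcript length in wild type, at 62.9 CPM per kilobase, and stood at 11.4 CPM per kilobase in the shRNA-labelled library. It measured 401, 318 and 264 CPM in wild-type libraries 1, 2 and 3 and 59.5 CPM (95% Poisson interval 54.5 to 64.9) in the shRNA-labelled library, 5.5-fold lower than the wild-type mean. Even the lowest wild-type library stood well above that value (log2 fold change -2.46, SE 0.30, edgeR adjusted p = 0.0242). LGR4 fell by 2.26 on the log2 scale with the trend removed (edgeR adjusted p = 0.0241). The call was lost without wild-type library 2 (0.0574), the highest adjusted p of 9 alternatives that began at 2.88e-23.

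FZD7, a Frizzled receptor of stem and progenitor cells, measured 15.4, 14 and 13.9 CPM in wild type, a narrow range, and 37.8 CPM in the shRNA-labelled library (log2 fold change 1.39, SE 0.21, edgeR adjusted p = 0.032). It also rose with the trend removed (1.23, edgeR adjusted p = 0.0328), but was lost without wild-type libraries 2 (0.0641) or 3 (0.0667); the adjusted p over 9 alternatives began at 3.34e-05. FZD8, another Frizzled receptor, measured 9.70, 6.80 and 7.29 CPM against 29.3 CPM (log2 fold change 1.89, SE 0.28, edgeR adjusted p = 0.0314). Its change was 0.28 with the trend removed (edgeR adjusted p = 0.682, the highest of 9 alternatives, from 8.39e-08), and the call was lost without wild-type libraries 2 (0.0594) or 3 (0.0679). Thus both Frizzled genes stood clear of all wild-type libraries as measured, and only FZD7 kept its call with the trend removed. The other Frizzled genes did not pass. FZD1 came nearest, at 17.1, 19.6 and 17.7 CPM in wild type against 33.9 CPM (log2 fold change 0.90, edgeR adjusted p = 0.0744), while FZD4 and FZD6 lay inside the wild-type range. FZD2 and FZD5 lay above and FZD3 below all wild-type libraries, with log2 fold changes from -0.34 to 0.90, and FZD2 turned to -0.61 with the trend removed. Of the exonic length of FZD4, 18.9% is shared with a gene on the opposite strand.

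The paired co-receptors LRP5 and LRP6 lay on opposite sides of wild type without passing. LRP5 measured 24.3, 13.8 and 35.0 CPM in wild type against 109 CPM in the shRNA-labelled library, above each of them (log2 fold change 2.16, SE 0.46, edgeR adjusted p = 0.0667; 0.92 with the trend removed, edgeR adjusted p = 0.104, the highest of 9 alternatives, from 1.92e-15). LRP6 measured 29.7, 28.8 and 27.8 CPM against 20.9 CPM (log2 fold change -0.46, edgeR adjusted p = 0.245). The receptors of WNT5A-type signalling did not pass either. ROR1, a receptor tyrosine kinase-like protein, measured 81.6, 32.9 and 43.7 CPM in wild type against 23.7 CPM in the shRNA-labelled library, below each (log2 fold change -1.15, SE 0.57, edgeR adjusted p = 0.272). RYK, a catalytically inactive kinase-like WNT receptor, was the second highest receptor per length, at 18.9 CPM per kilobase in wild type. It measured 117, 88 and 92.7 CPM against 107 CPM, inside the wild-type range (log2 fold change 0.10, SE 0.22, edgeR adjusted p = 0.797). ROR2 also lay inside it, at 7.34 to 15.5 CPM against 10.9 CPM.

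**Figure D2:**
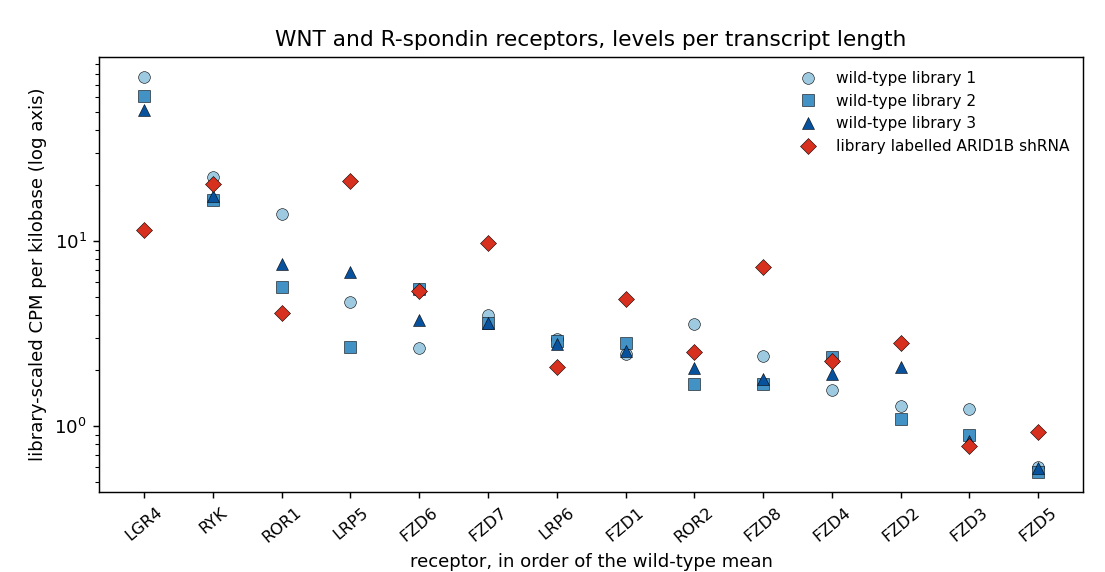
CPM per kilobase of the longest transcript (log axis) of the 14 WNT and R-spondin receptors in each of the 4 libraries, ordered by the wild-type mean. LGR4 leads in all 3 wild-type libraries (mean 62.9 CPM per kilobase) and drops to 11.4 in the shRNA-labelled library, where LRP5 stands at 21.2 and RYK at 20.2.

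Of the 3 Dishevelled genes, which relay the signal from the receptors, DVL1 rose. It measured 4.81, 3.48 and 10.5 CPM in wild-type libraries 1, 2 and 3 and 83.5 CPM (95% Poisson interval 77.6 to 89.8) in the shRNA-labelled library, 13.3-fold above the wild-type mean. Wild-type library 3 was the highest of the wild-type values and still far below (log2 fold change 3.72, SE 0.54, edgeR adjusted p = 0.0351). After removal of the trend the DVL1 change was smaller, 1.78 on the log2 scale, and passed (edgeR adjusted p = 0.0304). The call was lost without wild-type library 2 (0.0639), the highest adjusted p of 9 alternatives, which began at 4.42e-24. DVL3, the most abundant of the 3 per length in wild type at 23.7 CPM per kilobase, measured 130, 110 and 140 CPM against 168 CPM, and DVL2 42.7, 25.0 and 47.0 CPM against 56.2 CPM. Both lay above all wild-type libraries but neither passed (log2 fold changes 0.41, SE 0.19, and 0.56, SE 0.37; edgeR adjusted p = 0.246 and 0.390), and both directions turned with the trend removed (-0.11 and -0.26). Per kilobase, DVL1 went from the lowest of the 3 in wild type (1.94) to between DVL2 and DVL3 (25.8 against 18.6 and 31.5).

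In the destruction complex 1 of 6 genes, AXIN1, rose. AXIN1, the scaffold that holds the complex together, measured 11.5, 8.66 and 14.6 CPM in wild type against 50.6 CPM (95% Poisson interval 46.0 to 55.6) in the shRNA-labelled library, well above all 3 (log2 fold change 2.12, SE 0.30, edgeR adjusted p = 0.0296). The AXIN1 call was lost with the trend removed (0.63, edgeR adjusted p = 0.111, the highest of 9 alternatives, from 1.29e-12) and also without wild-type library 2 (0.0509). CTNNB1, which encodes beta-catenin itself, was the most abundant of the 50 genes per length, at 111 CPM per kilobase in wild type. It measured 508, 614 and 508 CPM in wild type against 333 CPM in the shRNA-labelled library, below each wild-type library, but did not pass (log2 fold change -0.71, SE 0.19, edgeR adjusted p = 0.0962; 0.00451 to 0.156 over 9 alternatives). APC, the large scaffold that binds beta-catenin, measured 94.0, 96.2 and 90.3 CPM against 64.2 CPM (log2 fold change -0.54, edgeR adjusted p = 0.128). CSNK1A1, the kinase that places the first phosphate on beta-catenin, measured 221, 208 and 228 CPM against 257 CPM (log2 fold change 0.23, SE 0.16, edgeR adjusted p = 0.404), and 37.4% of its exonic length is shared with another annotated gene. The kinase gene GSK3B and the ubiquitin ligase gene BTRC lay just below wild type, by log2 fold change at -0.21 and -0.28 (edgeR adjusted p = 0.466 and 0.451).

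No TCF factor passed the test, and the 4 genes split evenly, 2 above and 2 below all wild-type libraries. LEF1, which is itself a WNT target in many tissues, led per length in wild type at 8.61 CPM per kilobase; it measured 32.4, 30.0 and 27.3 CPM against 16.2 CPM in the shRNA-labelled library (log2 fold change -0.88, SE 0.24, edgeR adjusted p = 0.0951; 0.0282 to 0.162 over 9 alternatives). TCF7 measured 37.5, 35.5 and 47.2 CPM against 51.9 CPM (log2 fold change 0.37, SE 0.23, edgeR adjusted p = 0.363). TCF7L1, mostly a repressor, and TCF7L2 stood at 0.61 and -0.38 on the log2 fold change scale (edgeR adjusted p = 0.432 and 0.382), and TCF7L1 turned to -0.35 with the trend removed.

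Of 9 tested feedback targets TNFRSF19 fell and none rose. TNFRSF19, also called TROY, is a TNF receptor family member and a known target of beta-catenin; it measured 30.1, 16.5 and 31.2 CPM in wild type against 2.74 CPM (95% Poisson interval 1.75 to 4.07) in the shRNA-labelled library. Its 24 counts there lay far under the lowest wild-type library, at 213 counts (log2 fold change -3.24, SE 0.54, edgeR adjusted p = 0.0388). With the trend removed the change was similar, -3.07 (SE 0.60), and missed the threshold (edgeR adjusted p = 0.0683), as it did without wild-type library 3 (0.0753, the highest of 9 alternatives, from 1.81e-14) and with limma-voom (0.0663). AXIN2, the most general transcriptional readout of beta-catenin activity, measured 5.59, 4.95 and 5.66 CPM in wild type against 1.71 CPM in the shRNA-labelled library, from 15 counts. Its wild-type values were nearly equal and their mean was 3.16 times that level, but the test was missed (log2 fold change -1.65, SE 0.39, edgeR adjusted p = 0.0746; 0.0221 to 0.150 over 9 alternatives). The AXIN2 value with the trend removed was -1.84 (edgeR adjusted p = 0.0579); 25.2% of its exonic length is shared with another annotated gene.

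NKD2, a Dishevelled-binding antagonist, moved the other way without passing, at 2.72, 1.78 and 3.45 CPM against 11.1 CPM (log2 fold change 2.05, SE 0.41, edgeR adjusted p = 0.0534). Its value with the trend removed was 0.04 (edgeR adjusted p = 0.952, with 3.64e-05 to 0.952 over 9 alternatives). SP5, a zinc finger repressor, and NOTUM, an enzyme that strips the lipid from WNT ligands, were near the limit of detection. SP5 had 1, 2 and 8 counts in wild type and 8 in the shRNA-labelled library, and NOTUM had 3, 3 and 15 counts against 15 (log2 fold changes 1.76, SE 1.01, and 1.76, SE 0.88; edgeR adjusted p = 0.327 and 0.271), and with the trend removed their values were 0.098 and 0.044. The ubiquitin ligase genes RNF43 and ZNRF3, whose products remove Frizzled receptors and are held in check by R-spondin bound to LGR4, did not pass. RNF43 measured 14.7, 9.12 and 10.8 CPM against 9.24 CPM (log2 fold change -0.32, SE 0.36, edgeR adjusted p = 0.609; 73.9% of its exonic length is shared with other annotated genes), and ZNRF3 12.4 to 13.4 CPM against 16.9 CPM (edgeR adjusted p = 0.354). NKD1 and APCDD1 lay inside the wild-type range at 0.928 to 2.40 CPM, and LGR5, a stem cell marker and WNT target, had 1 count in wild-type library 2 and 0 elsewhere, which allows up to 0.342 CPM in the shRNA-labelled library.

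Of 4 tested inhibitors DKK1 rose. DKK1, a secreted protein that blocks LRP5 and LRP6 and is itself a WNT target, measured 1.55, 2.16 and 1.76 CPM in wild-type libraries 1, 2 and 3 and 20.6 CPM (95% Poisson interval 17.7 to 23.9) in the shRNA-labelled library, 11.3-fold above the wild-type mean. The 3 wild-type values were close together and the counts rose from 20 to 28 in wild type to 181 (log2 fold change 3.49, SE 0.31, edgeR adjusted p = 0.0175). The value with the trend removed was 3.69 (edgeR adjusted p = 0.0109), and 9.61% of the exonic length of DKK1 is shared with a gene on the opposite strand. DKK1 was the only one of the 8 called genes that passed in all 9 alternatives, with an adjusted p of 1.92e-17 to 0.049. Its divergent relative DKK3 was the most abundant inhibitor per length, at 45.9 CPM per kilobase in wild type, and measured 139, 108 and 118 CPM against 84.6 CPM (log2 fold change -0.52, SE 0.21, edgeR adjusted p = 0.188). SFRP1, which binds WNT ligands outside the cell, measured 86.0, 90.2 and 104 CPM against 105 CPM (log2 fold change 0.18, SE 0.18, edgeR adjusted p = 0.580). KREMEN1, the DKK co-receptor, had a log2 fold change of 0.47 (edgeR adjusted p = 0.340), and WIF1, another secreted WNT-binding inhibitor, had 8, 7 and 4 counts in wild type and 5 in the shRNA-labelled library, too few to test.

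**Figure D3:**
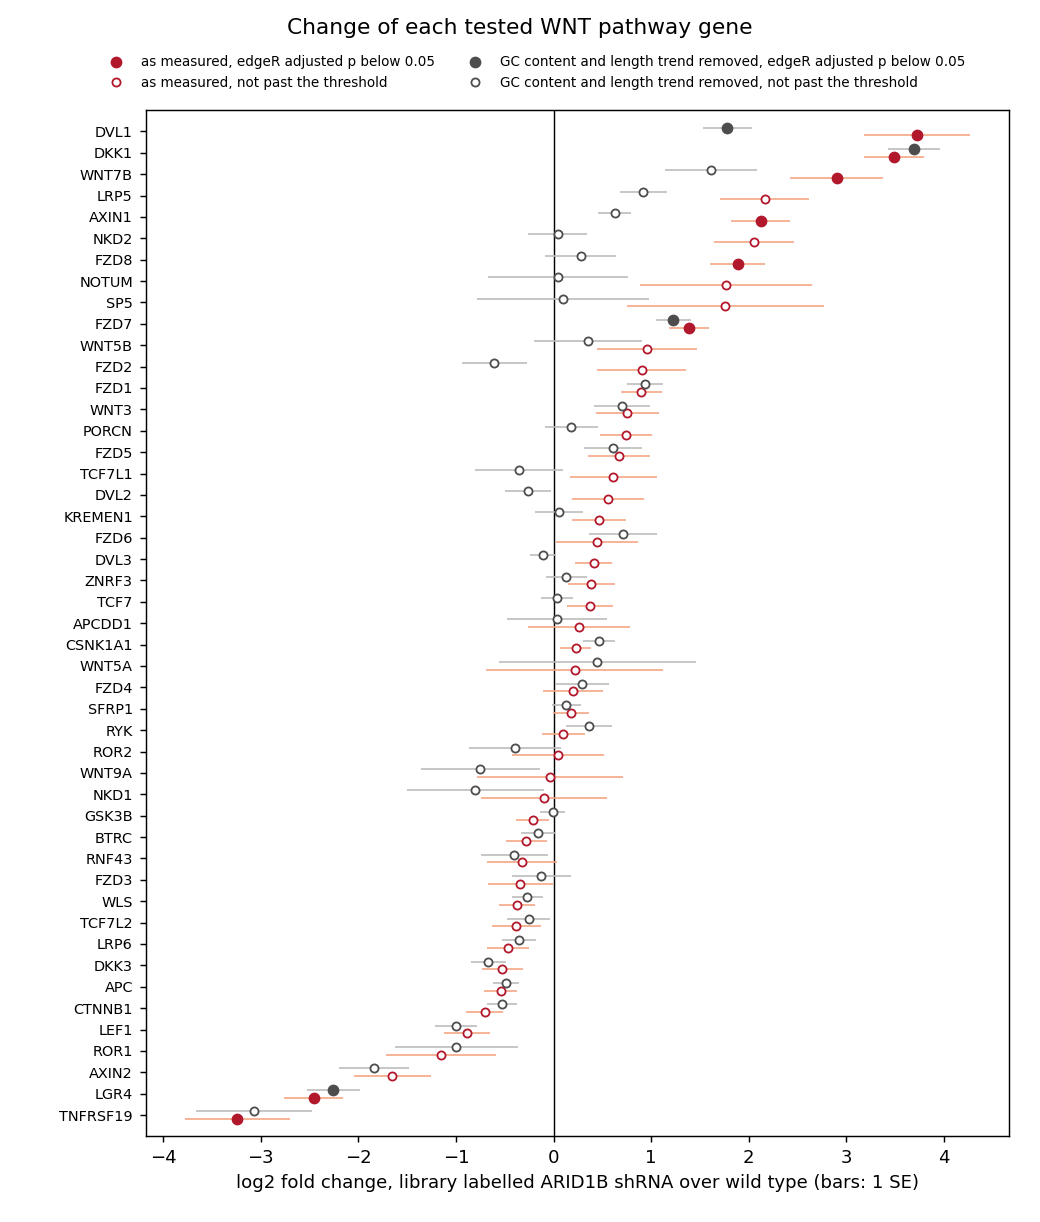
Log2 fold change (shRNA-labelled library over the wild-type libraries) of the 47 tested WNT pathway genes, as measured (red) and with each library's GC content and length trend removed (grey). Bars are 1 SE and filled points have an edgeR adjusted p below 0.05. DKK1, FZD7 and LGR4 differ little between the analyses, whereas NKD2, FZD8 and AXIN1 lie nearer to 0 with the trend removed.

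The GC content of the transcripts went along with these differences. Across the 47 tested genes, which share the same 4 libraries, log2 fold change and GC content of the longest transcript had a Spearman correlation of 0.644 (Pearson 0.582), against 0.472 over 16620 tested genes; with the trend removed the pathway value was 0.139. Of the 11 tested pathway genes with a GC content of at least 60%, a limit chosen after the values were seen, 4 rose (DVL1, AXIN1, FZD8 and WNT7B), as did 15.8% of all tested genes in that class. Of the 36 below that limit 2 rose (DKK1 at 43.5% GC and FZD7 at 52.8%), against 1.93% of all tested genes in that class, and 2 fell (LGR4 at 42.1% and TNFRSF19 at 43.2%), against 0.953%. The median log2 fold change of the 11 was 1.89 as measured, against 1.13 for all genes of the class, and 0.10 with the trend removed. The wild-type libraries differed along the same line: of these 11 genes 9 were highest in wild-type library 3 and 9 were lowest in library 2. Of the 36 other genes 7 were highest in library 3 and 17 lowest in library 2. The part of GC content in the change of single genes was not tested beyond the removal of the trend.

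**Figure D4:**
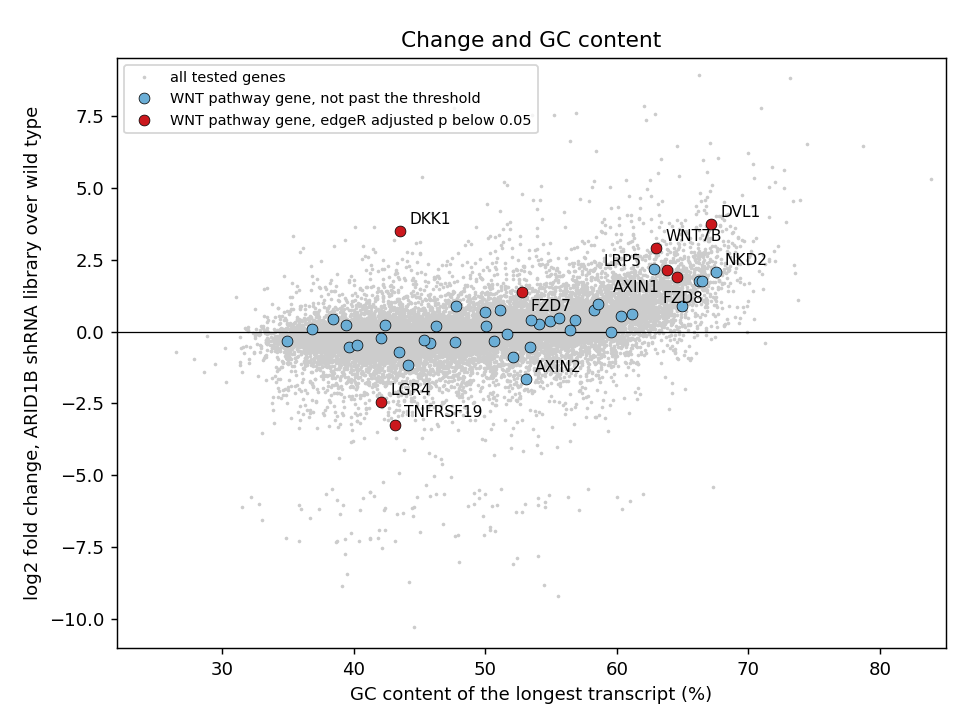
Log2 fold change (shRNA-labelled library over wild type) against the GC content of the longest transcript, for all tested genes (grey), WNT pathway genes past the threshold (red) and the other tested WNT pathway genes (blue). DVL1, WNT7B, AXIN1 and FZD8 lie above 60% GC where most genes stand above 0. DKK1 lies above, and LGR4 and TNFRSF19 below, the median of all tested genes under 60% GC (-0.13).

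The sequences upstream of 4 called genes are shown for their base composition and the few matches to known motifs. They are the 250 bases before the start of DKK1, LGR4 and DVL1, which passed with and without the trend, and of AXIN1, which passed only as measured, read 5′ to 3′ from RefSeq's table of build GRCh38.p14, which is not the authors' build. Capitals mark a match on either strand to a TCF/LEF motif (CTTTGAT or CTTTGAA) or to the cyclic AMP response element (TGACGTCA).
DKK1, chr10:52314031-52314280, plus strand: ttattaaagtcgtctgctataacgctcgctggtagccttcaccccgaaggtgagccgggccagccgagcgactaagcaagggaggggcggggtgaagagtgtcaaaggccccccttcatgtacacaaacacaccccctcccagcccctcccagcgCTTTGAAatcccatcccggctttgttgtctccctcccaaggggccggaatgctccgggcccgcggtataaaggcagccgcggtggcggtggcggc
LGR4, chr11:27472791-27473040, minus strand: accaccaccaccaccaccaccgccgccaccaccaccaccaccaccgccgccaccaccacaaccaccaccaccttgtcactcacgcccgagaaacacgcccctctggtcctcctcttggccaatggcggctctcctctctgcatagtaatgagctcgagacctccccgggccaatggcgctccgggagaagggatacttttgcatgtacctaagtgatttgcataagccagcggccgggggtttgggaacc
DVL1, chr1:1349419-1349668, minus strand: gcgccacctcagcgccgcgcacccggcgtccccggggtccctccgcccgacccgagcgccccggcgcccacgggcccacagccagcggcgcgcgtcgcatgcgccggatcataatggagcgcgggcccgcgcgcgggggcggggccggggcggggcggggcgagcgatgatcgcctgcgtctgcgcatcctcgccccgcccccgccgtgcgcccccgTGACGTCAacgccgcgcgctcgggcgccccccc
AXIN1, chr16:352724-352973, minus strand: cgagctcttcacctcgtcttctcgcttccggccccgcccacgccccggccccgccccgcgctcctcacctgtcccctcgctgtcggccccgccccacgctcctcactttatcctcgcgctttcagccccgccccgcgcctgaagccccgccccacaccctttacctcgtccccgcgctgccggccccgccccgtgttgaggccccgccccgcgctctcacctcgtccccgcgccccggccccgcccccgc
The GC content of these windows was 62.8% for DKK1, 62.0% for LGR4, 83.2% for DVL1 and 77.6% for AXIN1, against a median of 58.0% over 27305 promoters and 69.2% over the 35 pathway genes with an entry. Of the other called genes, FZD8 had 65.2% and TNFRSF19 49.6%; the window of FZD8, whose transcript is GC-rich, thus lay near those of DKK1 and LGR4. The DKK1 window held CTTTGAA starting 95 bases before the start; of the 35 pathway genes with an entry, DKK1 and SP5 held a TCF/LEF match (5.71%), as did 6.03% of all promoters. The DVL1 window held TGACGTCA starting 33 bases before the start, the only such match among the 35 genes (2.86%, against 1.77% of all promoters). The GC box GGGCGG, searched on both strands and overlapping neither motif, occurred 8 times upstream of AXIN1, 5 times upstream of DVL1, once upstream of DKK1 and not upstream of LGR4. It was present in 74.3% of the 35 pathway windows and 42.3% of all, alongside the higher GC content of the pathway windows. None of the 35 held the AP-1 motif (TGAGTCA or TGACTCA), found in 4.16% of all promoters, or TGATGCAA, a site of C/EBP and ATF4 dimers found in 0.82%. These matches describe letters only, and binding was not measured.

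Among 124 further genes tied to WNT signalling, 105 were tested, of which 11 rose and 4 fell. The share that rose was 10.5%, and 3.81% fell, against the 3.65% and 0.834% of all genes given above; with the trend removed 6 rose and 5 fell. Of the 15 genes only FOSL1 passed in all 9 alternatives. Leaving out wild-type library 2 ended 13 of the calls and leaving out library 3 ended 11, while none was lost without library 1.

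Among other ligands and R-spondins 1 of 6 tested genes fell and none rose. RSPO3, a secreted R-spondin that binds LGR4, measured 4.73, 3.63 and 2.99 CPM in wild type, from 46 to 61 counts, and a single count was found in the shRNA-labelled library (edgeR adjusted p = 0.0348; 0.0672 without wild-type library 2, 0.0566 without library 3 and 0.0398 with the trend removed). RSPO4, named after its values were seen, lay on the other side, at 11.3, 8.73 and 11.8 CPM in wild type against 18.6 CPM. It did not pass (log2 fold change 0.81, edgeR adjusted p = 0.149), and its log2 fold change was 0.0026 with the trend removed. Of 11 tested other inhibitors SFRP4, a secreted Frizzled-related protein, fell, from 8.77, 6.49 and 5.21 CPM in wild type to 0.684 CPM (log2 fold change -3.30, SE 0.57, edgeR adjusted p = 0.0408; 0.0732 without wild-type library 2 and 0.0592 without library 3). None of 9 tested other receptors passed.

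Of 22 other cytoplasmic regulators CSNK1E and APC2 rose. CSNK1E, a casein kinase that phosphorylates Dishevelled, measured 52.2, 55.1 and 74.7 CPM in wild type against 168 CPM, well above all 3 (log2 fold change 1.47, edgeR adjusted p = 0.035; 0.0724 without wild-type library 2). It passed with the trend removed (0.93, edgeR adjusted p = 0.0451). APC2, a neural paralogue of APC, had a log2 fold change of 2.34 as measured and -0.18 with the trend removed. Of 21 nuclear cofactors the co-repressor gene CTBP1 and the acetyltransferase gene CREBBP rose, by 1.5 and 1.01 on the log2 scale, with values of 0.61 and -0.03 with the trend removed, where neither passed. Of 14 planar polarity genes SCRIB rose (2.69; 0.80 with the trend removed, where it did not pass) and PRICKLE2 fell (-1.41; -1.49 with the trend removed, edgeR adjusted p = 0.0374).

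A list of genes that beta-catenin can switch on in other tissues had 20 tested members. Of these 6 rose (MYC, JUN, FOSL1, TBX3, MSX1 and VEGFA) and 1 fell (BMP4). These shares were 30% and 5%, against 3.65% and 0.834% of all tested genes. With the trend removed 3 rose and 2 fell, against 1.93% and 1.19% of all tested genes. Several of the 6 are also targets of other pathways. FOSL1, a subunit of the AP-1 transcription factor, measured 29.9, 48.0 and 46.7 CPM in wild type against 356 CPM (log2 fold change 3.10, SE 0.27, edgeR adjusted p = 0.0183, and 8.66e-54 to 0.049 over 9 alternatives). Its AP-1 partner gene JUN measured 50.3, 60.5 and 75.5 CPM against 301 CPM, again above every wild-type library (log2 fold change 2.28, SE 0.23, edgeR adjusted p = 0.0183; 0.0538 without wild-type library 2). MYC, a growth-promoting transcription factor gene, measured 13.3, 17.2 and 16.3 CPM against 55.8 CPM (log2 fold change 1.84, SE 0.22, edgeR adjusted p = 0.0233; 0.050 without wild-type library 2 and 0.0523 without library 3). VEGFA, an angiogenic growth factor gene, measured 120, 191 and 189 CPM against 842 CPM (log2 fold change 2.34, edgeR adjusted p = 0.0242; 1.38 with the trend removed, edgeR adjusted p = 0.0911). AXIN2 and LEF1, described above, lay below wild type without passing, on the other side from these genes. Of the 9 tested feedback targets 4 (44.4%, against 35.4% of all tested genes) lay above all wild-type libraries. AXIN2 and TNFRSF19 (22.2%, against 37.9%) lay below. With the trend removed the 4 above, NKD2, SP5, NOTUM and ZNRF3, had log2 fold changes of 0.04, 0.098, 0.044 and 0.13. Those of AXIN2 and TNFRSF19 were -1.84 and -3.07.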

How the data were processed

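The labels' protocols give poly(A) selection and single-end reads of 100 nucleotides. The deposited values are read counts per gene, 1 file per library, without normalization. The submitters' processing notes name GRCh37 (hg19) and the tools HISAT2, HTSeq, bcl2fastq and DESeq2; their versions, strand setting and annotation were not given in the sources used, so reads of overlapping genes are uncertain. Summary lines that name no gene were left out; reads outside genes made up 5.27% to 7.65% and ambiguous reads 5.93% to 6.75%.

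Counts were fitted with edgeR 4.0.16 in R 4.3.3 (filterByExpr, TMM, robust glmQLFit, glmQLFTest) over 17024 genes, with 2 residual degrees of freedom from the wild-type libraries; the lone shRNA-labelled library was assumed to vary as they do. Benjamini-Hochberg adjustment covered all of them, and the threshold was 0.05. The standard error was the absolute log2 fold change divided by the square root of F. In simulated counts for this comparison, over 17024 genes, 49 of 50 genes changed 8-fold were called, with 11 false calls. Of those changed 4-fold 30 of 50 were called, and of those changed 2-fold 19 of 50. These counts held no trend on GC content or length, and the changed genes had expected counts above 20. Each gene was drawn with the spread typical of its level, so genes that vary more between wild-type libraries were not represented. The number of false calls in the measured counts therefore cannot be read from them. Length and GC content came from the longest GENCODE transcript (GRCh38), known for 97.6% of tested genes; each library's loess trend on both (span 0.3, fitted on genes averaging 20 counts or more) was removed through offsets. Other alternatives were RLE scaling, DESeq2 1.42.0, limma-voom 3.58.1, no filter on low counts, a minimum mean of 50 counts and leaving out each wild-type library. A gene at 0 was bounded by 3 counts. Poisson intervals cover counting error only.

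The genes and lists were chosen with earlier results of these data known. Values in full are given for genes past the threshold, genes outside the wild-type range with an absolute log2 fold change of at least 1, and the 2 most abundant genes per length in each role. Other pathway genes have values where they passed, up to 4 a list by smallest p. RSPO4 and the genes of other lists named in the closing observations have values without having passed. The values of the remaining genes, such as FZD1, LRP6 and APC, account for every member and were picked after they were seen.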

Additional observations from a re-analysis of the deposited data

How the results depend on the processing

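The shRNA-labelled library has no replicate, and most calls were lost under at least 1 alternative. All genes past the threshold numbered 763, against 1775 with DESeq2, 3226 with no filter on low counts (3148 of them genes that the filter keeps), and 157 to 1189 without single wild-type libraries (157 without library 2). Of the pathway genes 6 rose, against 3 with the GC content and length trend removed and 1 to 7 without single wild-type libraries (1 without library 2, 3 without library 3); 2 fell, against 1 with limma-voom, 6 with no filter, 1 with the trend removed and 1 to 2 without single libraries. With the trend removed 15 pathway genes lay above the wild-type range, against 24. The pathway median of 0.26 was 0.38 with limma-voom and 0.035 with the trend removed.

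Role medians with the trend removed were -0.043 for ligand secretion (0.19 as measured), -0.11 for Dishevelled (0.56), -0.082 for the destruction complex (-0.25), -0.30 for TCF factors, 0.034 for feedback targets (0.26) and 0.093 for inhibitors (0.32). The receptor median of 0.32 was 0.20 at a mean count of at least 50 and ran from 0.29 to 0.52 without single wild-type libraries; that of the destruction complex ran from -0.27 to -0.19. The feedback median was 0.058 with no filter, -0.32 at a mean count of at least 50, and 0.012 to 0.42 without single libraries. ARID1B was -0.18 with the trend removed and 0.47 to 1.12 without single libraries. WNT5A turned to -0.17 without wild-type library 1 and -0.024 without library 3, and was 1.17 without library 2. DVL2 and DVL3 turned to -0.26 and -0.11 with the trend removed. The pathway genes given in full were compared with the main analysis once per gene and alternative. Of these comparisons 15 lost a call, 12 gained one, 4 reversed direction and 216 stayed the same, so a gene can count several times. SP5 and NOTUM have no value at a mean count of at least 50. No paired analysis was possible because the single shRNA-labelled library carries no replicate number.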

Other observations

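Of 5 genes that mark the WNT subgroup of medulloblastoma in tumours, none passed the test and 2, WIF1 and DKK2, had too few counts to test. TNC, a matrix glycoprotein, was by far the most abundant, at 959, 1764 and 1412 CPM in wild-type libraries 1, 2 and 3 against 447 CPM in the library labelled ARID1B shRNA (log2 fold change -1.62, edgeR adjusted p = 0.078, with 2.23e-13 to 0.187 over 9 alternatives). GAD1, which makes the transmitter GABA, measured 3.25 to 3.49 CPM against 4.22 CPM, and EMX2, a homeobox factor, 5.95 to 8.15 CPM against 9.12 CPM.

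WNT5A varied 5.11-fold among the wild-type libraries and was highest in library 2, as were several genes of other lists. The Frizzled-related inhibitor SFRP2 measured 4.66, 25.8 and 7.62 CPM in libraries 1, 2 and 3, the Dishevelled antagonist DACT1 7.37, 30.8 and 19.5 CPM, and the mesenchymal genes LUM and PDGFRB 21.7, 130 and 24.2 CPM and 38.3, 102 and 33.7 CPM. ROR1 ran differently, at 81.6, 32.9 and 43.7 CPM. These genes were chosen after their values were seen, and which of the libraries came from vector-only or parental cells is not stated. SOST, an LRP5 and LRP6 blocker, had 3, 0 and 0 counts in wild type and 24 in the shRNA-labelled library (edgeR adjusted p = 0.062, with 1.15e-08 to 0.134 over 9 alternatives).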
